A study of Mus musculus with 28 samples.

Results

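Type 1 conventional dendritic cells (cDC1) from mice homozygous for an altered Irf8 enhancer (genotype Irf8 +32H/H, written H/H) were compared with wild-type (WT) cDC1 over both experiments of the series. The comparison takes 8 of the 28 bulk RNA-seq libraries, namely those labelled cDC1 with the genotype Irf8 +32H/H or WT in either experiment. They are 4 H/H libraries, a pair from each experiment, and 4 WT libraries, a pair from each experiment. All came from sort-purified cells of the spleen of C57BL/6 mice. The +32H allele lies in the enhancer at +32 kb of Irf8. H/H mice carry it on both copies and WT mice on neither, and no other altered allele is named for these groups. The series further holds type 2 conventional dendritic cells (cDC2), cells named hybrid cDC, heterozygous Irf8 +32H/+ mice and H/H mice with changes at Nfil3 or Zeb2. Sort gates, ages, sexes and pooling of animals are not given in the sources used here, and neither is the sequence of the +32H allele. The labels call the libraries of a group biological duplicates without saying which animals they came from, so p-values measure the spread between these libraries.

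Conventional dendritic cells take up antigen and present it to T cells. IRF8 is the transcription factor on which cDC1 depend for their identity, and the +32 kb enhancer is known as the element through which BATF3 with IRF8 keeps Irf8 expressed in committed cDC1. cDC1 take up dead cells and cross-present their antigens to CD8 T cells, whereas cDC2 depend on IRF4 and ZEB2 and mainly prime CD4 T cells. Genes induced by type I interferon encode antiviral effectors and are transcribed through elements that both the interferon-activated complex ISGF3 and IRF proteins can bind.

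Each library held 18.94 to 33.28 M counts (26.86 to 33.28 M in experiment 1, 18.94 to 22.64 M in experiment 2). Expression is given in counts per M reads (CPM) of the library after trimmed-mean (TMM) scaling. CPM are not divided by gene length, so levels are compared between libraries and not between genes. Over the 2000 most variable genes, the first principal component held 40.4% of the variance and separated the experiments. The second held 27.9% and separated the genotypes. In experiment 1, replicate 2 of each genotype held Xist counts, and replicate 1 and all libraries of experiment 2 held Ddx3y counts, so the sexes were balanced between the genotypes. Where values of single libraries follow, they run in the order of experiment 1 replicates 1 and 2 and experiment 2 replicates 1 and 2. A gene is said to have risen or fallen in H/H cDC1 where the edgeR quasi-likelihood test with a term for the experiment gave a Benjamini-Hochberg adjusted p below 0.05 over 14307 genes.

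The gene next to the altered enhancer fell. Irf8 (ENSMUSG00000041515, chromosome 8, 120736358 to 120756694, + strand, GRCm38 coordinates of the GENCODE annotation) stood at 811, 802, 564 and 632 CPM in H/H cDC1, against 2498, 1888, 2402 and 1833 CPM in WT cDC1. Every H/H library lay below every WT library. The log2 fold change was -1.63 (SE 0.12, adjusted p = 7.63e-07), so that H/H cDC1 held 32.6% of the mean WT level. The log2 fold change was -1.44 (SE 0.16) in experiment 1 and -1.82 (SE 0.16) in experiment 2. In libraries scaled together over the whole series, mean Irf8 was 845 ± 5.6 CPM in H/H cDC1 of experiment 1 and 1164 ± 77.4 CPM in cDC1 of Irf8 +32H/+ mice, against 2302 ± 423 CPM in WT cDC1 (SD, n = 2 libraries each). WT cDC2 of the same experiment held 48.9 ± 0.51 CPM. In a bulk library, fewer cells that express a gene and less RNA per cell cannot be told apart, here or for any gene below.

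No protein-coding neighbour of Irf8 passed the test. The tested genes with a start within 500 kb were Gins2, Emc8, Cox4i1, Gm33142 and Mthfsd. Cox4i1, a subunit of cytochrome c oxidase whose start lies 68 kb upstream, averaged 599 CPM in H/H and 619 CPM in WT cDC1 (log2 fold change -0.04, SE 0.076, adjusted p = 0.844). The log2 fold changes of Gins2, Emc8 and Mthfsd were -0.21, -0.19 and 0.01. The predicted gene Gm33142, whose start lies 51 kb upstream and which was named after its value was seen, averaged 0.55 CPM in H/H and 0.18 CPM in WT cDC1 (log2 fold change 1.57, SE 0.45, adjusted p = 0.0349).

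**Figure D1:**
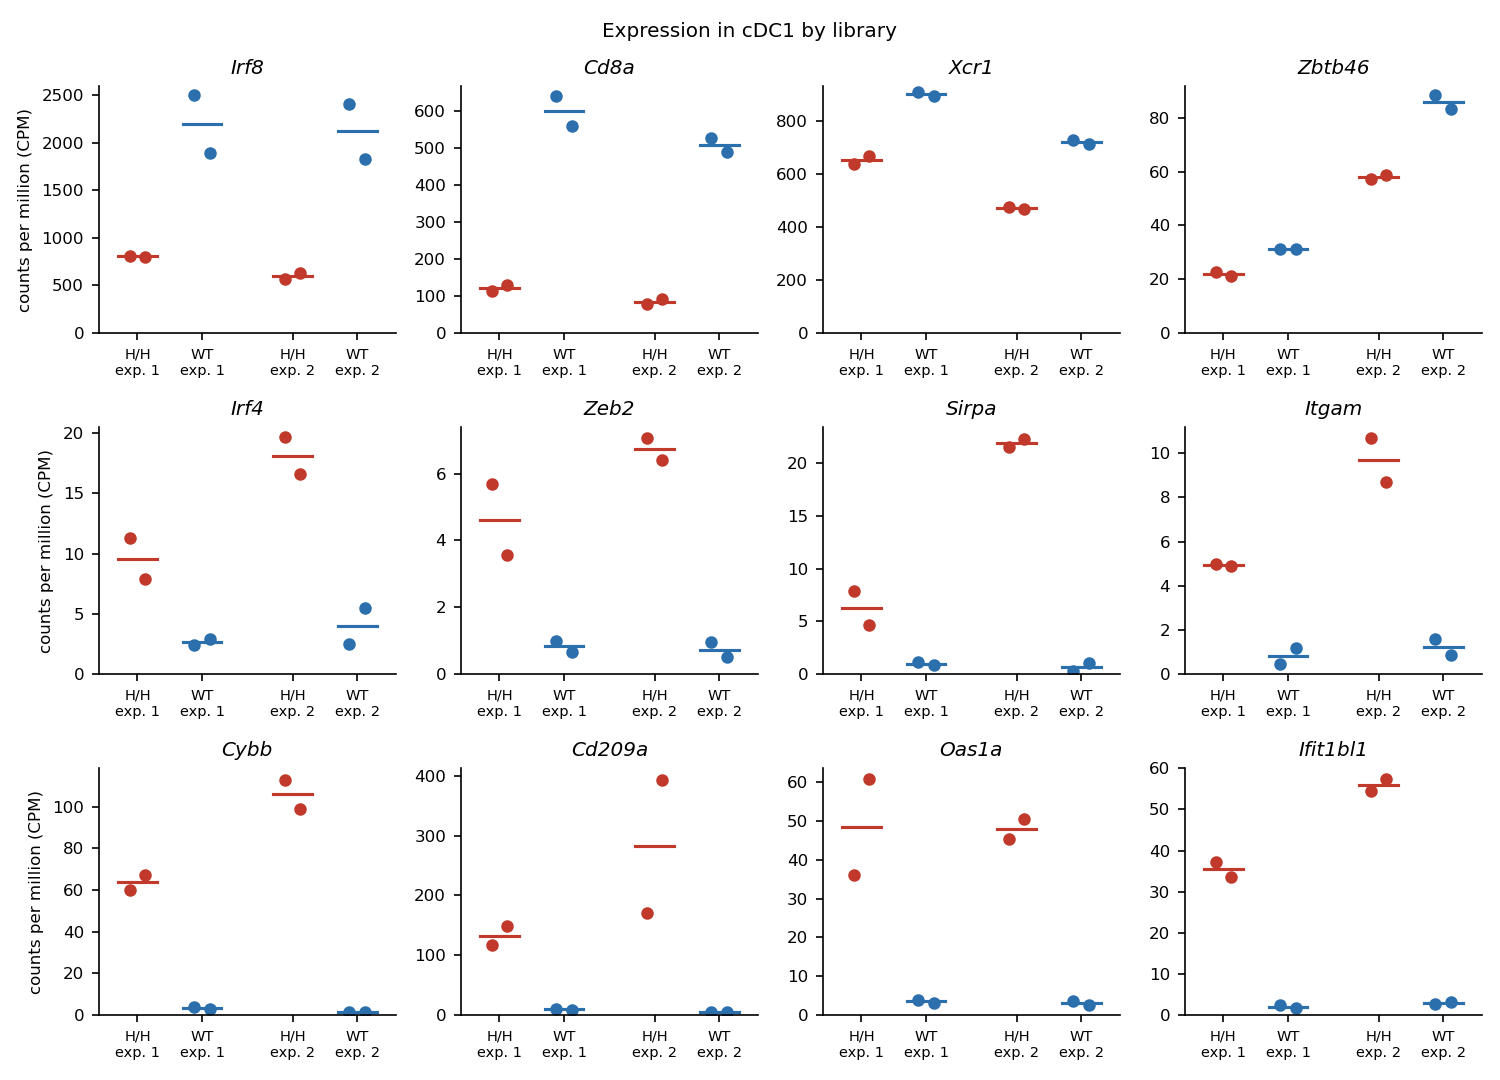
Expression of 12 genes in every cDC1 library, in counts per M on linear axes that start at 0 and differ between panels. Points are libraries, horizontal lines are the means of the 2 libraries, red is H/H and blue is WT, with experiment 1 left of experiment 2. Irf8, Cd8a and Xcr1 were lower in all 4 H/H libraries than in any WT library, and Zbtb46 was lower within each experiment. Irf4, Zeb2, Sirpa, Itgam, Cybb, Cd209a, Oas1a and Ifit1bl1 were higher in all 4.

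Across all genes, 1578 of 14307 (11%) passed the test, 890 higher (6.22%) and 688 lower (4.81%) in H/H cDC1. Of these, 361 rose at least 2-fold (2.52% of genes tested) and 144 fell at least 2-fold (1.01%). All 4 H/H libraries lay above all 4 WT libraries for 833 genes (5.82%) and below them for 638 (4.46%). The median log2 fold change over all genes was -0.008. The fold changes had the same sign in both experiments for 1577 of the 1578 called genes. Genes were called on both experiments together, which favours equal signs, so this count is not a separate replication. Experiment 1 alone called 598 genes (4.18%), 377 higher (2.64%) and 221 lower (1.54%). Experiment 2 alone called 772 genes (5.4%), 488 higher (3.41%) and 284 lower (1.99%). Both counts came from contrasts in a shared fit of the libraries of both experiments, which pooled the estimate of spread. Both experiments alone called 287 of the genes that rose and 156 of those that fell, and 726 of the 1578 were called in neither experiment alone. Without a term for the experiment, the count over both was 562. Leaving out any 1 of the 4 libraries of experiment 1 brought the count of experiment 1 alone to between 263 and 326, and leaving out WT replicate 1 of experiment 2 brought that of experiment 2 alone to 514.

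**Figure D2:**
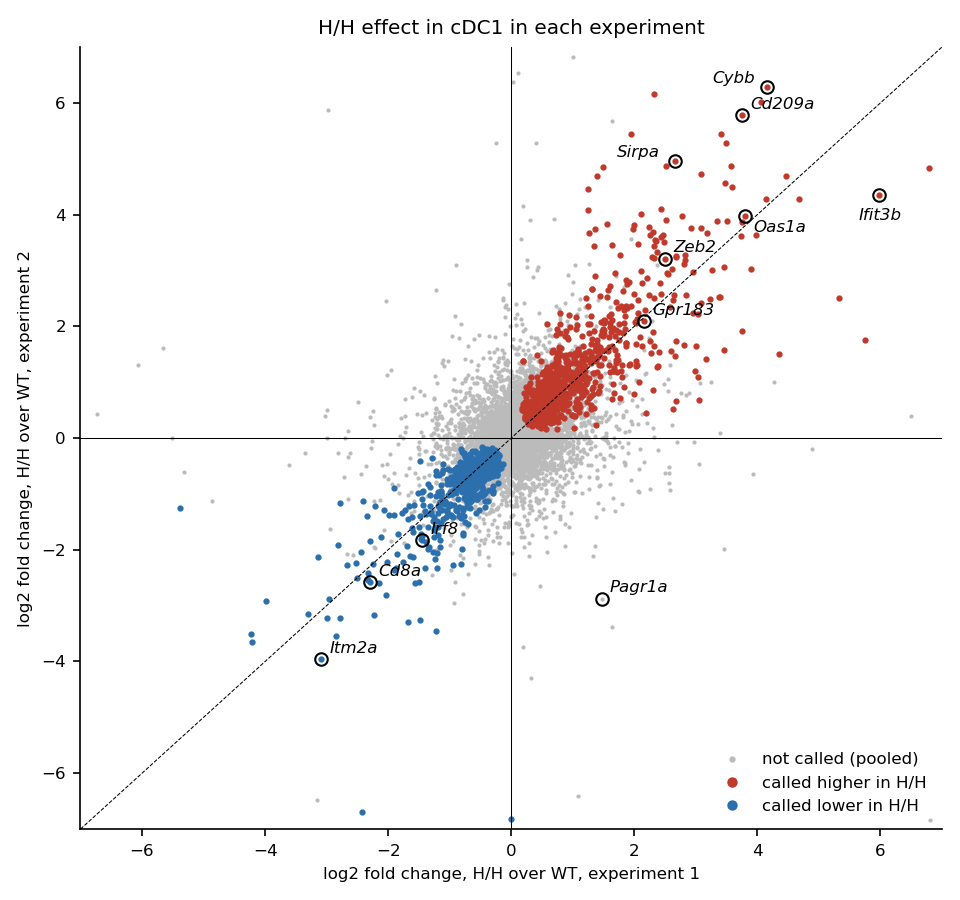
Each point is 1 of 14307 genes, with the log2 fold change of H/H over WT cDC1 in experiment 1 on the horizontal axis and in experiment 2 on the vertical axis, and the dashed line marks equal values. Red points rose and blue points fell over both experiments, gray points did not pass, and values beyond the axes are not shown. Cybb, Cd209a and Sirpa lie above the line, Ifit3b lies below it, and Pagr1a has opposite signs in the experiments.

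The receptors and coreceptors that mark cDC1 fell unevenly. Of 28 cDC1 marker genes, all tested, 18 fell and 1 rose (Snx22), with a median log2 fold change of -0.524, beside -0.008 over all genes and 4.81% of genes called lower. Every list count here and below is to be read beside the shares over all genes, 6.22% higher and 4.81% lower. Cd8a, the CD8 alpha chain carried by splenic cDC1, had 114, 130, 78.5 and 91.1 CPM in H/H cDC1, against 640, 560, 528 and 490 CPM in WT cDC1. No H/H library reached the lowest WT library. Its log2 fold change was -2.44 (SE 0.097, adjusted p = 1e-09), the second largest fall of the list. The largest was that of Itm2a, a type II membrane protein, with 1.05, 2.64, 1.35 and 0.83 CPM in H/H cDC1, against 12.1, 19.0, 15.7 and 17.8 CPM in WT cDC1 (log2 fold change -3.46, SE 0.29, adjusted p = 1.45e-05). Cd207, which encodes the C-type lectin langerin, fell by a log2 value of 2.37 (SE 0.32, adjusted p = 0.00378). Cd24a, the CD24 surface glycoprotein used to gate cDC1, fell by 1.09 (SE 0.09, adjusted p = 1.45e-06).

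Other cDC1 receptors moved less. Xcr1, the receptor for the chemokine XCL1, had 637, 669, 476 and 469 CPM in H/H cDC1, against 910, 895, 727 and 714 CPM in WT cDC1 (log2 fold change -0.54, SE 0.072, adjusted p = 0.000134). All H/H libraries were lower than all WT libraries, and the mean stayed at 69.3% of WT. Cadm1, an adhesion molecule, fell by 0.86 (adjusted p = 0.000102), and the endosomal receptors Tlr3 for double-stranded RNA and Tlr12 for profilin fell by 0.83 and 0.98. Clec9a, the receptor for actin of dead cells, had 176, 172, 227 and 178 CPM in H/H cDC1, against 191, 218, 215 and 238 CPM in WT cDC1, and the groups overlapped (log2 fold change -0.20, SE 0.091, adjusted p = 0.208). Itgae, the CD103 integrin chain, averaged 80.8 CPM in H/H and 81.3 CPM in WT cDC1 (log2 fold change -0.02, SE 0.12, adjusted p = 0.967). The 28 markers summed to 9793 to 12119 CPM in the H/H libraries, against 12983 to 15415 CPM in the WT libraries.

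**Figure D3:**
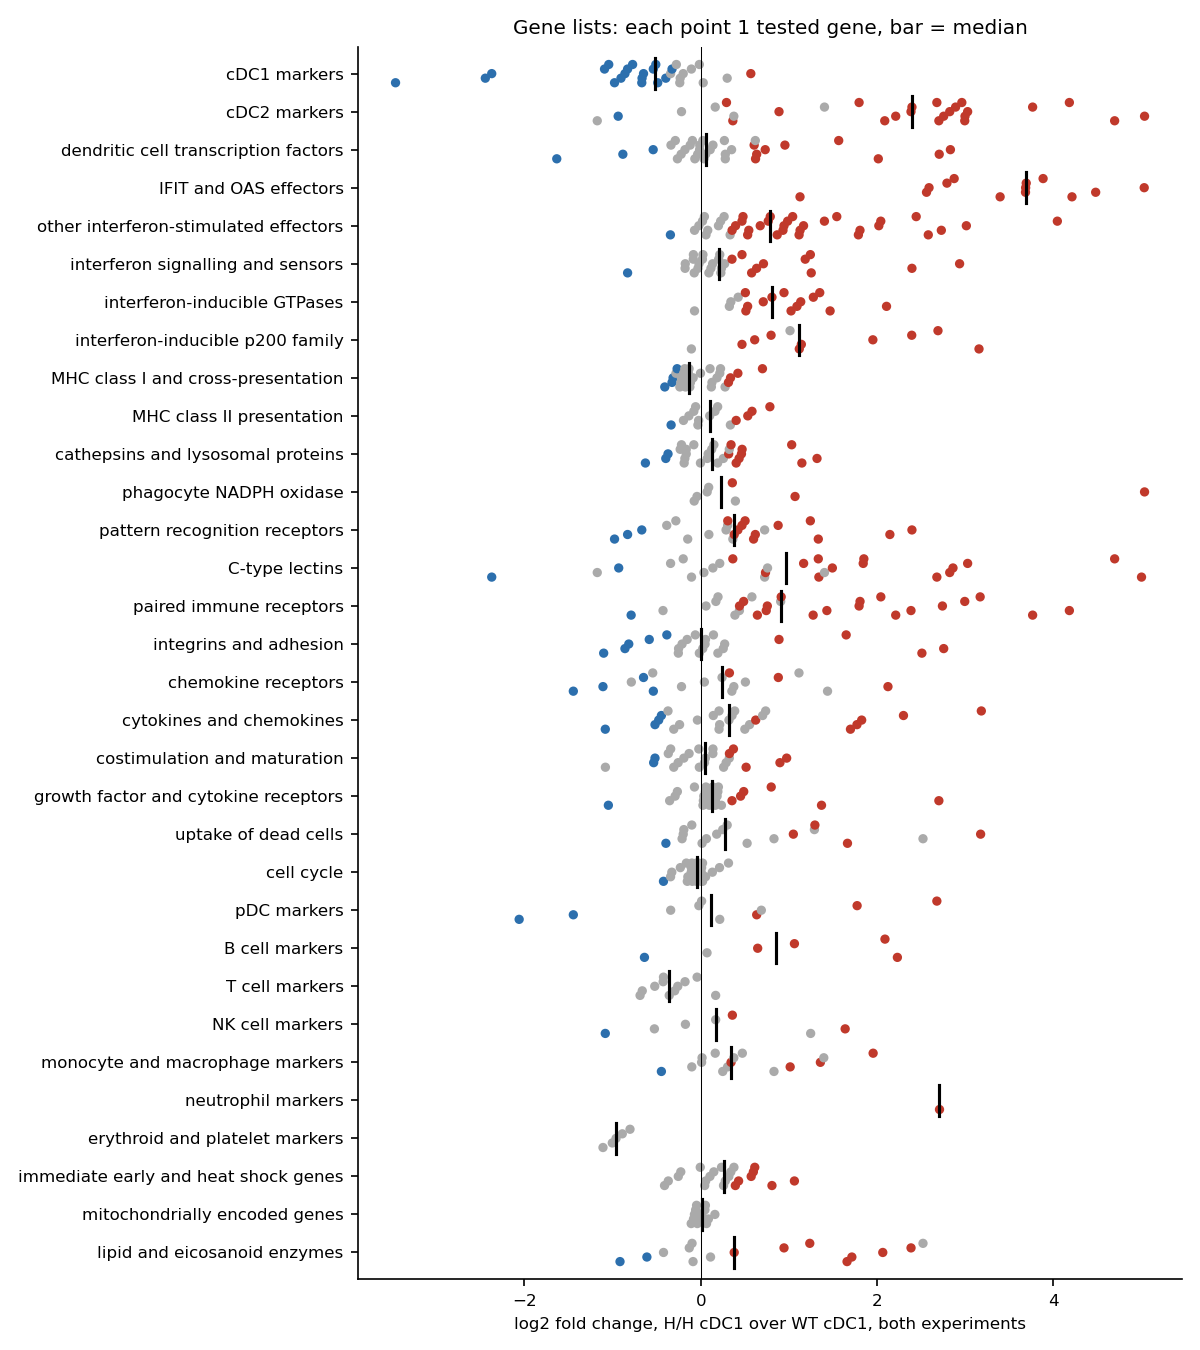
Log2 fold change of H/H over WT cDC1 over both experiments for every tested member of 32 gene lists, 1 point per gene. Red members rose and blue members fell at an adjusted p below 0.05, gray members did not pass, and black bars are list medians. The cDC2 marker and IFIT and OAS lists lie to the right (medians 2.395 and 3.684), the cDC1 markers lie to the left (-0.524), and the cell cycle and mitochondrially encoded genes lie around 0.

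Transcription factors of the dendritic cell lineages changed in both directions. Of 33 tested, 9 rose and 3 fell, and the median was 0.056. Zeb2, a repressor required for cDC2 and plasmacytoid dendritic cells, had 5.68, 3.56, 7.07 and 6.41 CPM in H/H cDC1, against 0.99, 0.66, 0.95 and 0.51 CPM in WT cDC1. Its log2 fold change was 2.83 (SE 0.26, adjusted p = 4.22e-06), and every H/H library was higher than every WT library. Irf4, the IRF family factor of cDC2, had 11.3, 7.91, 19.6 and 16.6 CPM in H/H cDC1, against 2.4, 2.93, 2.5 and 5.47 CPM in WT cDC1 (log2 fold change 2.01, SE 0.21, adjusted p = 2.13e-05). These levels were a small part of those in WT cDC2 of experiment 1, where Zeb2 averaged 78.1 CPM and Irf4 110 CPM. Ehf, an ETS family factor, rose by 2.70 (SE 0.18, adjusted p = 7.63e-07), with 38.3 CPM in H/H and 5.97 CPM in WT cDC1. Batf2, a relative of Batf3, rose by 1.56, Bhlhe40 by 0.95, Klf4 by 0.73, and Tcf4, the E protein E2-2 of plasmacytoid dendritic cells, by 0.63.

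Other factors of cDC1 and of conventional dendritic cells in general did not move alike. Mycl, a MYC family member of cDC1, fell by a log2 value of 0.88 (SE 0.12, adjusted p = 0.000123). Zbtb46, a zinc finger factor of conventional dendritic cells, had 22.6, 21.1, 57.2 and 58.8 CPM in H/H cDC1, against 31.3, 31.1, 88.4 and 83.1 CPM in WT cDC1 (log2 fold change -0.54, SE 0.084, adjusted p = 0.000528). It was lower in H/H within each experiment, while its level in either genotype was higher in experiment 2. Batf3, the AP-1 factor that pairs with IRF8, averaged 116 CPM in H/H and 135 CPM in WT cDC1 (log2 fold change -0.22, SE 0.095, adjusted p = 0.174). Id2, the inhibitor of E proteins, averaged 1767 CPM in H/H and 1726 CPM in WT cDC1 (log2 fold change 0.04, SE 0.097, adjusted p = 0.886). Nfil3, a bZIP repressor required for cDC1 specification, averaged 21.3 CPM in H/H and 20.6 CPM in WT cDC1 (log2 fold change -0.01, SE 0.13, adjusted p = 0.973). Its level too was higher in experiment 2 in either genotype. In libraries scaled together it averaged 7.34 CPM in H/H and 8.03 CPM in WT cDC1 of experiment 1. The means were 36.0 and 33.6 CPM in experiment 2. Without a term for the experiment, the calls of Xcr1 and Zbtb46 were lost.

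Genes that mark cDC2 rose in H/H cDC1. Of 30 cDC2 marker genes, 27 were tested, 21 rose and 1 fell (Lyz2, lysozyme), and the median log2 fold change was 2.395. For 19 of the 27, all 4 H/H libraries lay above all WT libraries, which held for 5.82% of all genes tested. The tested markers summed to 1556 to 2001 CPM in the H/H libraries, against 1038 to 1288 CPM in the WT libraries. Cybb, the catalytic subunit of the phagocyte NADPH oxidase, had 60.1, 67.3, 113 and 99 CPM in H/H cDC1, against 4.07, 3.12, 1.23 and 1.47 CPM in WT cDC1. Its log2 fold change of 5.03 (SE 0.45, adjusted p = 0.000982) was the largest among the genes chosen by size, and the lowest H/H library was far above the highest WT library. Cd209a, a DC-SIGN family lectin, had 117, 148, 170 and 394 CPM in H/H cDC1, against 10.5, 9.14, 4.68 and 5.56 CPM in WT cDC1 (log2 fold change 4.69, SE 0.59, adjusted p = 0.00707). Replicate 2 of H/H in experiment 2 was the highest, and the value without it was 4.26. Sirpa, the CD47 receptor that marks cDC2, had 7.92, 4.64, 21.5 and 22.3 CPM in H/H cDC1, against 1.14, 0.85, 0.33 and 1.06 CPM in WT cDC1 (log2 fold change 3.76, SE 0.51, adjusted p = 0.00294).

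Surface molecules of cDC2 moved in the same direction. Itgam, the CD11b integrin chain, had 4.97, 4.90, 10.7 and 8.68 CPM in H/H cDC1, against 0.46, 1.20, 1.61 and 0.87 CPM in WT cDC1 (log2 fold change 2.76, SE 0.25, adjusted p = 4.62e-06). Cd4, carried by a part of splenic cDC2, averaged 55.7 CPM in H/H and 6.56 CPM in WT cDC1 (log2 fold change 3.0, adjusted p = 1.9e-05). The inhibitory receptor Cd300lf averaged 44.4 CPM in H/H and 5.58 CPM in WT cDC1 (log2 fold change 2.99, adjusted p = 8.18e-10). Esam, an adhesion molecule of a cDC2 subset, rose by 0.89. The cDC2 markers Clec10a, Cx3cr1, Csf1r and Ccr2 did not pass, with log2 fold changes of -1.17, -0.22, 0.16 and 0.38. Clec4a4, which encodes the DCIR2 receptor of splenic cDC2, was too low to test, at 0.17 to 0.65 CPM in the H/H libraries, against 0.05 to 0.19 CPM in the WT libraries.

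Many members of some surface receptor families rose. Of 27 tested paired receptors and their adaptors, 18 rose and 1 fell, with a median of 0.906. Among them Fcer1g, the signalling chain shared by Fc receptors, had 81.2, 85.4, 87.2 and 108 CPM in H/H cDC1, against 31.0, 27.3, 24.4 and 21.0 CPM in WT cDC1 (log2 fold change 1.81, SE 0.13, adjusted p = 5.76e-07). Of 26 tested C-type lectins, 14 rose and 2 fell (Cd207 and Mrc1), with a median of 0.962. Cd209e, a further DC-SIGN relative, averaged 34.3 CPM in H/H and 3.96 CPM in WT cDC1 (log2 fold change 3.03, SE 0.32, adjusted p = 0.000503). Clec7a, the beta-glucan receptor dectin-1, rose by 1.33. Members of the Cd209, Sirpb1 and Clec4a clusters are similar in sequence, and counting could divide reads among them, so single values within these clusters are uncertain.

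WT cDC2 of experiment 1 gave a scale for these rises. The difference between the means of H/H and WT cDC1 in experiment 1 was divided by the mean of WT cDC2, in libraries scaled together. For the 21 cDC2 markers that rose, this excess was 0.322% (Sirpb1c) to 320% (Cd209e) of the WT cDC2 level, with a median of 6.37%. It was 2.14% for Sirpa, 4.50% for Itgam, 12.1% for Cybb and 22.5% for Cd209a. For transcription factors it was 5.09% for Zeb2, 6.57% for Irf4 and 58.5% for Ehf. The interferon-related genes described next lay higher on this scale: the median was 52% over the 13 IFIT and OAS genes, 42.8% over the 28 other interferon-stimulated effectors, 66.1% over 13 interferon-inducible GTPases and 82% over 9 genes of the p200 family that rose. H/H cDC1 exceeded WT cDC2 for 2 of the 21 cDC2 markers (Cd209e and Clec12a, of which Clec12a was also higher in WT cDC1 than in WT cDC2), for 4 of the 13 IFIT and OAS genes, 12 of the 28 other effectors, 9 of the 13 GTPases and 6 of the 9 p200 genes. Of these, WT cDC1 was also above WT cDC2 for 1 of the 4, 2 of the 12, 1 of the 9 and 2 of the 6. These shares are descriptions of the means of 2 libraries, without a test. The cDC2 markers were listed for being high in cDC2, which makes their divisor large. Only genes that rose were kept, so a positive excess was set by selection. The order of the lists on this scale is therefore partly built in, and no conclusion is drawn from it.

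**Figure D4:**
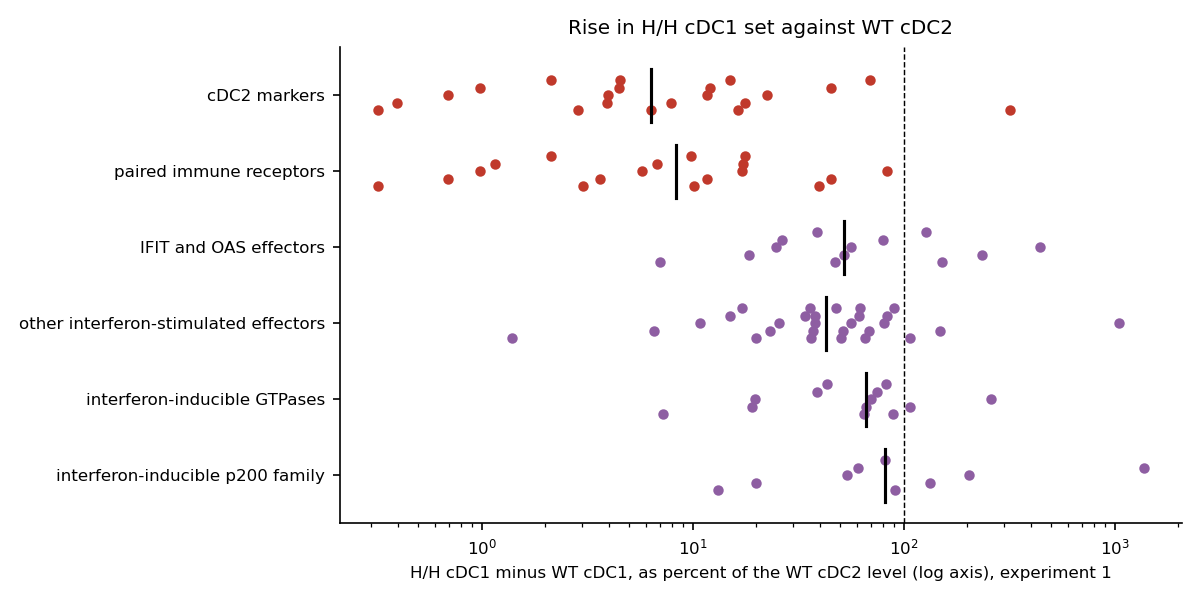
For each gene that rose in H/H cDC1, the mean of H/H cDC1 minus that of WT cDC1 in experiment 1, as a percent of the mean in WT cDC2, on a log axis. Rows are gene lists, points are genes, black bars are medians, and the dashed line marks 100%. The cDC2 markers spread from 0.322% to 320% with a median of 6.37%, left of the interferon-related lists, whose medians were 42.8% to 82%. Because these markers were listed for being high in cDC2, the divisor, their place to the left is partly built in.

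The direction of the H/H effect was set against the difference between WT lineages in libraries that did not overlap, with H/H and WT cDC1 of experiment 2 alone and WT cDC2 and WT cDC1 of experiment 1 alone. Each comparison was fitted separately on its own libraries, so its counts differ from those of the shared fit above. Of 13206 genes tested in both, 383 were higher (2.9%) and 162 lower (1.23%) in H/H cDC1. Of the 383, 321 (83.8%) were higher in WT cDC2 than in WT cDC1 and 26 (6.79%) were lower, while 21.5% of all genes were higher in WT cDC2 and 25.9% lower. Of the 162, 137 (84.6%) were lower and 5 (3.09%) higher in WT cDC2. Read from the other side, the 321 genes were 11.3% of the 2840 genes higher in WT cDC2, and the 137 were 4.01% of the 3415 genes lower there. The median WT cDC2 over WT cDC1 log2 fold change was 2.15 for the genes that rose, -2.31 for those that fell and -0.04 over all genes.

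The genes of the IFIT and OAS families had the highest median rise of the 32 gene lists. Ifit proteins bind viral RNA without the host's cap marks, and OAS proteins make the messenger that activates RNase L. Of the interferon lists, the 4 genes with the largest rises among those with an entry and a motif match were taken. The bases upstream of their starts are shown. They are the 250 bases before the annotated start, written 5′ to 3′ on the gene's strand, from RefSeq on GRCm38.p6. Capitals mark matches to GAAA, any 2 bases and GAAA again, or to the reverse complement (TTTC, any 2 bases, TTTC), the core of an element bound by ISGF3 and IRF proteins. In Oas1g and Oas1a a pair of matches overlaps. Ifit1bl1 has a pair of entries, of which the one with a match is shown.
Ifit3b, chr19:34607707-34607956, + strand: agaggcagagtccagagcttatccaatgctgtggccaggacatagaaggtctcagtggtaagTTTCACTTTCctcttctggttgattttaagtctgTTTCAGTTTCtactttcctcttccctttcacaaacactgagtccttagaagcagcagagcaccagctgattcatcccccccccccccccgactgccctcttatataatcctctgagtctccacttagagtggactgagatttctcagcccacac
Oas1g, chr5:120887614-120887863, - strand: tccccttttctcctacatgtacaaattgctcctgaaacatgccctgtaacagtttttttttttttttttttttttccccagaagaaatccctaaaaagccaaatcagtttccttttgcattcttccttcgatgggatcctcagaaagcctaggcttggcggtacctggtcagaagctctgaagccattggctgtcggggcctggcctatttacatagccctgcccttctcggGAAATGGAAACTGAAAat
Ifit1bl1, chr19:34599428-34599677, - strand: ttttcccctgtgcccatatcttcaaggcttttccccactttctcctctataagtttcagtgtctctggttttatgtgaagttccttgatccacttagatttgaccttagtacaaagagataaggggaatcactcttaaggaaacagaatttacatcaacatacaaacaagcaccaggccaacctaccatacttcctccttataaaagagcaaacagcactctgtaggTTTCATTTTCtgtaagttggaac
Oas1a, chr5:120907526-120907775, - strand: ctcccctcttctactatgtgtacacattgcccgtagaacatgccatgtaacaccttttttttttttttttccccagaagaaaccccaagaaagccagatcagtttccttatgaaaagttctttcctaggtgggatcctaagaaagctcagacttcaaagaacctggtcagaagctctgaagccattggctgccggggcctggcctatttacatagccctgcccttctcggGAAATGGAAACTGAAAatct

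The nearest match ended 3 bases before the start in Oas1g, 5 in Oas1a, 14 in Ifit1bl1 and 145 in Ifit3b. Of 14 IFIT and OAS genes 13 were tested and all 13 rose, with a median log2 fold change of 3.684. In all 13 every H/H library lay above every WT library, beside 5.82% of all genes tested. The 13 genes summed to 232 to 277 CPM in the H/H libraries, against 25.6 to 35.1 CPM in the WT libraries. Oas1a had 36.0, 60.7, 45.4 and 50.4 CPM in H/H cDC1, against 3.88, 3.09, 3.49 and 2.58 CPM in WT cDC1 (log2 fold change 3.88, SE 0.18, adjusted p = 7.26e-09). Ifit1bl1 had 37.2, 33.6, 54.6 and 57.3 CPM in H/H cDC1, against 2.32, 1.70, 2.60 and 3.17 CPM in WT cDC1 (log2 fold change 4.21, SE 0.13, adjusted p = 9.38e-11). For both genes the lowest H/H library lay far above the highest WT library. Ifit3 had 22.2, 33.3, 24.1 and 27.8 CPM in H/H cDC1, against 1.41, 2.68, 2.55 and 1.66 CPM in WT cDC1 (log2 fold change 3.68, SE 0.20, adjusted p = 5.24e-08). Oasl2, a relative of the OAS enzymes, had 22.9, 26.7, 29.5 and 27.9 CPM in H/H cDC1, against 2.21, 2.14, 2.22 and 1.66 CPM in WT cDC1 (log2 fold change 3.69, SE 0.14, adjusted p = 8.18e-10). Ifit3b and Oas1g rose by 5.03 (SE 0.30) and 4.48 (SE 0.31), at means of 7.01 and 9.23 CPM in H/H, against 0.23 and 0.41 CPM in WT cDC1. Ifit3 and Ifit3b, and the Oas1 genes, are near-identical copies, and counting could divide their reads.

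Other interferon-stimulated genes had a smaller median rise, although Rtp4 rose by more than the IFIT and OAS median. Of 39 tested effectors, 28 rose and 1 fell, with a median of 0.788. Rtp4, a regulator of the interferon response, averaged 4.96 CPM in H/H and 0.29 CPM in WT cDC1 (log2 fold change 4.04, SE 0.33, adjusted p = 1.23e-06). Ifi44, induced by virus and interferon, rose by 2.58 (SE 0.21, adjusted p = 1.01e-05), and Isg15, a ubiquitin-like modifier, by 1.40 (SE 0.14, adjusted p = 6.35e-06). Mx1, a GTPase that blocks influenza virus, averaged 47.9 CPM in H/H and 49.8 CPM in WT cDC1 (log2 fold change -0.07, SE 0.1, adjusted p = 0.759). Bst2, which tethers budding virus, averaged 46.6 CPM in H/H and 47.1 CPM in WT cDC1 (log2 fold change -0.02, SE 0.12, adjusted p = 0.954).

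Among interferon signalling proteins and sensors, 10 of 28 tested rose and 1, Tlr3, fell, with a median of 0.209. Ddx58, the RNA sensor RIG-I, had 5.51, 7.31, 8.22 and 7.72 CPM in H/H cDC1, against 0.99, 1.01, 0.85 and 0.83 CPM in WT cDC1 (log2 fold change 2.94, SE 0.20, adjusted p = 2.13e-07). Ifih1, the RNA sensor MDA5, rose by 1.24 (adjusted p = 1.38e-06), and Zbp1, a sensor of Z-form nucleic acid, by 1.25. The transcription factor genes downstream of the interferon receptor moved little: Stat2 rose by 0.63 (adjusted p = 0.000885) and Irf7 by 0.58 (adjusted p = 0.00918). Irf9 did not pass, with a log2 fold change of 0.22 (SE 0.08, adjusted p = 0.111). Ifnb1 was too low to test.

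Of 17 tested interferon-inducible GTPases, which act against intracellular microbes, 13 rose and none fell, with a median of 0.808. Gbp7 had 3.72, 5.64, 6.07 and 6.02 CPM in H/H cDC1, against 1.26, 1.29, 1.42 and 0.92 CPM in WT cDC1 (log2 fold change 2.11, SE 0.22, adjusted p = 1.14e-05). Of 11 tested genes of the p200 family, whose members bind DNA, 9 rose and none fell, with a median of 1.118. Ifi203 had 43.7, 58.2, 77.1 and 58.3 CPM in H/H cDC1, against 11.1, 10.5, 11.1 and 11.9 CPM in WT cDC1 (log2 fold change 2.39, SE 0.13, adjusted p = 2.59e-08). In this gene the WT libraries lay within a narrow band and all H/H libraries were higher. Ifi205, the p200 member listed as a cDC1 marker, averaged 844 CPM in H/H and 897 CPM in WT cDC1 (log2 fold change -0.11, SE 0.081, adjusted p = 0.500).

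This motif, GAAA with any 2 bases before the next GAAA, was counted on either strand in the 250 bases before each start, as a description. It was found for 345 of 9799 tested genes with an entry (3.52%), and in 978 of all 32851 entries (2.98%). Among genes that rose in H/H cDC1 it was found for 66 of 656 (10.1%), and among those that rose at least 2-fold for 44 of 266 (16.5%). Among genes that fell it was found for 20 of 529 (3.78%). Of the members of the interferon lists, it was found for 28 of 53 that rose (52.8%) and for 12 of 28 that did not pass (42.9%). It was found for 8 of 11 IFIT and OAS genes with an entry (72.7%). Rtp4 and Oas2 have no entry in the table. Oasl2, Slfn1 and Ddx58, also among the larger rises of the interferon lists, have an entry without a match.

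Genes of antigen presentation changed by small amounts. Of 30 genes of MHC class I presentation and cross-presentation, 4 rose and 4 fell (all genes 6.22% and 4.81%), with a median of -0.128. These counts rest on single libraries: 1 rose without WT replicate 2 of experiment 1, and 1 fell without WT replicate 1 of experiment 1. Cd1d1, which presents lipids to NKT cells, had 354, 355, 360 and 398 CPM in H/H cDC1, against 252, 259, 191 and 208 CPM in WT cDC1 (log2 fold change 0.70, SE 0.096, adjusted p = 0.000168). Pdia3 and Calr, chaperones of the peptide-loading complex, fell by 0.41 and 0.31. Wdfy4, which cDC1 need for cross-presentation, fell by 0.33 (SE 0.081, adjusted p = 0.0168). Of 15 tested MHC class II genes, 4 rose and 1 fell, and that 1 was lost without either library of H/H in experiment 1, among others. H2-DMb2 and H2-Oa, which edit or modulate the peptides loaded on class II, rose by 0.78 (adjusted p = 4.62e-06) and 0.53 (adjusted p = 0.000746). The class II chain gene H2-Aa averaged 13888 CPM in H/H and 14698 CPM in WT cDC1 (log2 fold change -0.08, SE 0.082, adjusted p = 0.642).

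Among 27 tested cathepsins and lysosomal proteins, 9 rose and 3 fell. Ctsc, the protease that activates granule serine proteases, had 250, 304, 304 and 312 CPM in H/H cDC1, against 109, 139, 92.7 and 128 CPM in WT cDC1 (log2 fold change 1.32, SE 0.12, adjusted p = 6.28e-06). Lgmn, the asparaginyl endopeptidase, rose by 1.15 and Ctsa by 1.03, while Gusb, beta-glucuronidase, fell by 0.63. Igf2r, the receptor that sorts enzymes tagged with mannose 6-phosphate to lysosomes, had 3.96, 3.56, 6.97 and 5.58 CPM in H/H cDC1, against 18.3, 17.3, 29.4 and 30.1 CPM in WT cDC1 (log2 fold change -2.24, SE 0.11, adjusted p = 9.26e-09). Slc11a1, a metal ion transporter of phagosomes, had 53.6, 59.6, 42.6 and 46.0 CPM in H/H cDC1, against 205, 202, 155 and 137 CPM in WT cDC1 (log2 fold change -1.78, SE 0.085, adjusted p = 6.43e-09). For both genes all H/H libraries lay below all WT libraries.

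Of the 8 genes of the phagocyte NADPH oxidase, 3 rose and none fell, and the largest rise was that of Cybb. Cyba, the partner chain of Cybb, averaged 521 CPM in H/H and 497 CPM in WT cDC1 (log2 fold change 0.07, SE 0.092, adjusted p = 0.715). Of 23 tested pattern recognition receptors, 12 rose and 3 fell, and those that fell were Tlr3, Tlr11 and Tlr12. Tlr1, which pairs with Tlr2 on bacterial lipopeptides, had 14.5, 14.3, 19.3 and 16.3 CPM in H/H cDC1, against 4.68, 2.87, 3.73 and 3.17 CPM in WT cDC1 (log2 fold change 2.15, SE 0.16, adjusted p = 7.63e-07).

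Adhesion and migration genes moved both ways. Of 22 tested integrins and adhesion molecules, 4 rose and 5 fell (all genes 6.22% and 4.81%). Beside Itgam and Cadm1, F11r, the junctional adhesion molecule A, averaged 14.2 CPM in H/H and 4.48 CPM in WT cDC1 (log2 fold change 1.65, SE 0.16, adjusted p = 5.38e-06). Of 17 tested chemokine and related receptors, 3 rose and 4 fell, and 1 rose without H/H replicate 1 of experiment 1. Gpr183, the oxysterol receptor EBI2 that positions cDC2 in the spleen, had 121, 114, 95.1 and 94.0 CPM in H/H cDC1, against 27.1, 25.8, 23.7 and 20.6 CPM in WT cDC1 (log2 fold change 2.12, SE 0.088, adjusted p = 1.42e-09). Ccr9, the receptor for CCL25, had 11.8, 11.4, 10.4 and 10.1 CPM in H/H cDC1, against 29.0, 26.6, 29.6 and 34.2 CPM in WT cDC1 (log2 fold change -1.45, SE 0.11, adjusted p = 8.18e-07). Neither gene overlapped between the genotypes. Cxcr3, the receptor for CXCL9 and CXCL10, fell by 0.65 (adjusted p = 0.0026).

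Of 25 tested cytokines and chemokines, 6 rose and 4 fell, and 2 fell without either library of H/H in experiment 2. Il12b, the p40 chain of IL-12 that cDC1 make, had 159, 148, 148 and 145 CPM in H/H cDC1, against 222, 299, 294 and 481 CPM in WT cDC1 (log2 fold change -1.08, SE 0.19, adjusted p = 0.00468). The H/H libraries lay close together, and the WT libraries were all higher and spread more. Ccl6 and Ccl9, CC chemokines of myeloid cells in the mouse, rose by 1.77 (SE 0.14, adjusted p = 1.84e-06) and 2.30 (SE 0.28, adjusted p = 5.59e-05). Il10, an inhibitory cytokine, had 0.58, 0.15, 3.36 and 2.71 CPM in H/H cDC1, against 0.04, 0.09, 0.09 and 0.41 CPM in WT cDC1. It rose (log2 fold change 3.18, SE 0.53, adjusted p = 0.00085), but the genotypes overlapped between experiments, and the call was lost without a term for the experiment.

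Of 23 tested costimulatory and maturation genes, 5 rose and 2 fell, and 2 rose without H/H replicate 1 of experiment 1 or H/H replicate 2 of experiment 2. Cd274, the inhibitory ligand PD-L1, had 58.0, 50.2, 77.2 and 76.9 CPM in H/H cDC1, against 31.6, 34.3, 33.5 and 39.3 CPM in WT cDC1 (log2 fold change 0.90, SE 0.10, adjusted p = 3.69e-05). The costimulatory genes Cd86 and Cd40 did not pass, with log2 fold changes of -0.26 and 0.26. Of 27 tested growth factor and cytokine receptors, 6 rose and 1, Il12rb2, fell (all genes 6.22% and 4.81%). Without WT replicate 2 of experiment 1, 3 rose. Il2rg, the common gamma chain, averaged 203 CPM in H/H and 78.4 CPM in WT cDC1 (log2 fold change 1.37, SE 0.10, adjusted p = 6.81e-07). Flt3, the receptor for the growth factor on which dendritic cells depend, averaged 373 CPM in H/H and 448 CPM in WT cDC1 (log2 fold change -0.27, SE 0.095, adjusted p = 0.0963).

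Of 18 tested genes for the uptake of dead cells, 4 rose and 1 fell (all genes 6.22% and 4.81%). Tgm2, transglutaminase 2, had 19.4, 19.0, 34.4 and 31.2 CPM in H/H cDC1, against 3.69, 3.44, 2.08 and 1.75 CPM in WT cDC1 (log2 fold change 3.17, SE 0.30, adjusted p = 0.000106). The receptors Lrp1 and Axl rose by 1.66 and 1.29, at means of 3.57 and 3.56 CPM in H/H, against 1.14 and 1.46 CPM in WT cDC1. Of 15 tested lipid and eicosanoid genes, 7 rose and 2 fell, and 4 rose without WT replicate 2 of experiment 2. Apoe, which carries lipids, had 234, 189, 247 and 290 CPM in H/H cDC1, against 105, 68.8, 70.1 and 60.8 CPM in WT cDC1 (log2 fold change 1.66, SE 0.19, adjusted p = 0.000308). Hpgds, a prostaglandin D synthase, rose by 2.06 (SE 0.19, adjusted p = 6.37e-06), and Plin2, which coats lipid droplets, fell by 0.92 (SE 0.1, adjusted p = 2.97e-05).

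Among the 10 largest rises chosen by size were 4 IFIT and OAS genes (Ifit1bl1, Oas1a, Oasl2 and Ifit3), 4 cDC2 markers (Cybb, Cd209a, Sirpa and Cd209e), Tgm2 and Nxpe4. The 10 largest falls held 3 cDC1 markers (Itm2a, Cd8a and Cd207) and Irf8 itself. The others were Igf2r, Slc11a1, Mras, Fndc5, Dcstamp and Dbn1. Mras, a RAS family GTPase, averaged 3.43 CPM in H/H and 12.5 CPM in WT cDC1 (log2 fold change -1.87, SE 0.15, adjusted p = 1.23e-06). Fndc5, the precursor of irisin, averaged 4.57 CPM in H/H and 16.2 CPM in WT cDC1 (log2 fold change -1.81, SE 0.13, adjusted p = 6.4e-07). Dbn1, the actin-binding protein drebrin, averaged 42.8 CPM in H/H and 132 CPM in WT cDC1 (log2 fold change -1.63, SE 0.14, adjusted p = 4.04e-06). Dcstamp, known for the fusion of osteoclasts, averaged 3.51 CPM in H/H and 11.1 CPM in WT cDC1 (log2 fold change -1.69, SE 0.29, adjusted p = 0.00271).

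Cell cycle and mitochondrially encoded genes showed few calls. Of 30 cell cycle genes none rose and 1 fell, with a median of -0.048, and none of 13 mitochondrially encoded genes passed. Over all genes 6.22% rose and 4.81% fell, so counts this small cannot set these lists apart from other genes. Of 22 immediate early and heat shock genes, which respond to handling, 7 rose and none fell, with a median of 0.268, and 4 rose without H/H replicate 1 of experiment 1 or WT replicate 1 of experiment 2. They summed to 11420 to 18531 CPM in the H/H libraries, against 11383 to 14065 CPM in the WT libraries. Atf3 rose by 1.06 (adjusted p = 0.000444), with 334, 230, 731 and 860 CPM in H/H cDC1, against 181, 127, 335 and 334 CPM in WT cDC1. The part of handling in the genes that rose was not tested.

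Markers of other cells were set beside these results. Of 6 tested B cell markers, 4 rose and 1 fell, and 2 rose without H/H replicate 1 or 2 or WT replicate 2 of experiment 1 or WT replicate 2 of experiment 2. Ms4a1, the CD20 antigen, had 106, 109, 179 and 164 CPM in H/H cDC1, against 25.2, 22.5, 29.6 and 40.5 CPM in WT cDC1 (log2 fold change 2.23, SE 0.10, adjusted p = 6.11e-09). In WT cDC2 of experiment 1 it averaged 16.4 CPM. Defining B cell markers were at or near 0: Cd79a, Pax5, Ebf1 and the other untested members did not exceed 0.65 CPM in any library. The 6 tested genes summed to 536 to 633 CPM in the H/H libraries, against 391 to 560 CPM in the WT libraries, of which Ighm, which did not pass, gave 337 to 500 CPM in H/H and 338 to 514 CPM in WT libraries.

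Of 15 tested monocyte and macrophage markers, 4 rose and 1 fell, and they summed to 569 to 662 CPM in the H/H libraries, against 374 to 575 CPM in the WT libraries. Adgre1, the F4/80 antigen, averaged 13.1 CPM in H/H and 3.35 CPM in WT cDC1 (log2 fold change 1.96, SE 0.31, adjusted p = 0.00264), and 366 CPM in WT cDC2. Further genes known from macrophages rose: Spic by 1.01 (adjusted p = 0.0063), Ms4a7 by 1.36 (adjusted p = 0.000822) and Timd4 by 1.05 (adjusted p = 0.000463). In WT cDC2 of experiment 1 they averaged 35.9, 22.4 and 3.52 CPM. Vcam1 went the other way (log2 fold change -0.447, adjusted p = 0.0299), and was called in 3 of the 8 fits with 1 library left out. C1qa, a complement gene of macrophages, averaged 0.64 CPM in H/H and 0.69 CPM in WT cDC1, and Fcgr1, Marco, Chil3 and F13a1 reached at most 0.41 CPM in a library. Of 10 tested plasmacytoid markers 3 rose and 2 fell, with sums of 123 to 144 CPM in H/H and 116 to 134 CPM in WT libraries. Of 7 tested NK cell markers 2 rose and 1 fell, and none of 11 T cell and 5 erythroid and platelet genes passed, although 4 erythroid and platelet genes fell without H/H replicate 1 of experiment 1. Of 12 neutrophil markers Csf3r alone was tested, with a mean of 0.63 CPM in H/H and 0.10 CPM in WT cDC1 (log2 fold change 2.70, adjusted p = 0.00201), while the untested 11 did not exceed 1.61 CPM. Whether admixed cDC2 or other cells contributed to the genes that rose was not tested.

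The H/H effect differed between the experiments for 2 of 14307 genes (0.014%) by the interaction in edgeR, in the higher direction for Cybb (1 gene, 0.00699%) and in the lower for Pagr1a (1 gene, 0.00699%), with 437 genes at an unadjusted p below 0.05. DESeq2 called 9. Cybb rose more in experiment 2: its log2 fold change was 6.29 (SE 0.21) there and 4.15 (SE 0.18) in experiment 1, a difference of 2.14 (SE 0.27, adjusted p = 0.0112). Both a higher level in H/H and a lower level in WT cDC1 of experiment 2 enter this difference. Pagr1a, a subunit of histone methyltransferase complexes, had 9.00 and 7.31 CPM in H/H and 2.86 and 3.03 CPM in WT cDC1 of experiment 1. In experiment 2 it had 1.30 and 3.19 CPM in H/H and 15.4 and 17.9 CPM in WT cDC1. Its log2 fold changes were thus 1.47 (SE 0.29) in experiment 1 and -2.87 (SE 0.30) in experiment 2, and it did not pass over both experiments (log2 fold change -0.63, adjusted p = 0.810). In some other groups of experiment 1 its duplicates differed widely. H/H cDC2 held 2.56 ± 3.35 CPM and H/+ hybrid cells 6.14 ± 4.65 CPM (SD, n = 2 libraries each). Tgm2 followed at a difference of 1.67 (SE 0.25, adjusted p = 0.0554). For the fixed genes Irf8, Cd8a, Xcr1, Zbtb46, Irf4, Zeb2, Sirpa, Itgam and Cd209a the difference did not pass. It was -0.38 (SE 0.22) for Irf8, 2.30 (SE 0.55) for Sirpa and 2.03 (SE 0.58) for Cd209a.

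**Figure D5:**
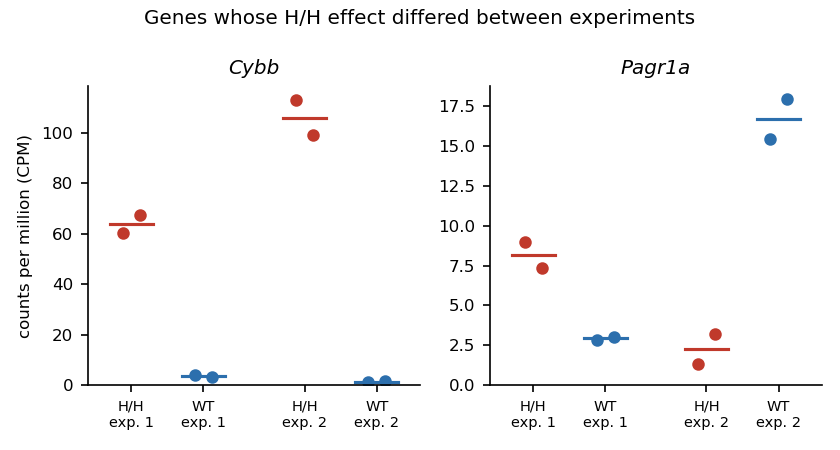
Expression of Cybb and Pagr1a in every cDC1 library, in counts per M on linear axes that start at 0. Points are libraries, horizontal lines are the means of the 2 libraries, red is H/H and blue is WT. Cybb was higher in H/H in both experiments, and Pagr1a was higher in H/H in experiment 1 and lower in experiment 2.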

How the data were processed

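Bulk RNA-seq of sorted splenic cDC1 gave 4 H/H and 4 WT libraries in 2 experiments. Per the labels' protocols, libraries were made with a SMARTer Ultra Low kit from 10 ng of total RNA and 12 to 15 cycles of PCR, and strandedness is not given in the sources used here, so overlapping genes cannot be told apart. The authors deposited expected counts (estimated reads per Ensembl gene, unscaled), in 1 table per experiment. Per the submitters' processing notes, bcl2fastq, DRAGEN and edgeR were used. Versions, settings, genome build and annotation are not given in the sources used here. Coordinates were taken by gene ID from GENCODE M21 (GRCm38), which held 55141 of 55487 IDs. Of 55774 lines, 287 repeated another and were dropped, and 10.8% and 10.2% of values in the 2 tables were not whole.

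Expected counts were rounded and fitted with edgeR 4.0.16 in R 4.3.3: filterByExpr over the 4 groups, TMM factors of 0.944 to 1.05, robust glmQLFit and glmQLFTest, with terms for experiment and genotype (5 residual degrees of freedom). Values within each experiment and their difference came from a fit with 1 coefficient per group (4 residual degrees of freedom). The genotype effect set against the WT lineages came from separate fits, each on the libraries of its own comparison. Benjamini-Hochberg adjustment ran over all 14307 genes and genes below 0.05 were called. Biological coefficients of variation had a median of 0.137. The standard error is the log2 fold change divided by the square root of F. The procedure was tested on simulated data. Alternatives were DESeq2 1.42.0, other scalings, filters and covariates, and each library left out.

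Named were a fixed set of genes (Cybb, Cd209a, Sirpa and Itgam of cDC2, Cd8a and Xcr1 of cDC1, and the factors Batf3, Id2, Irf4, Irf8, Nfil3, Tcf4, Zbtb46 and Zeb2), the 10 genes with the highest and the 10 with the lowest log2 fold change among those that passed, changed at least 2-fold, averaged at least 10 CPM in the higher genotype and did not overlap within either experiment, without predicted genes, pseudogenes and receptor segments, up to 4 called members with the largest change from each list, and for the difference the 6 genes with the smallest p. These are 119 genes. Further list members were named after their values were seen. The comparison, the members and the lists were chosen with earlier results of these data known. A few genes that the rule or the lists hold are not reported here.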

Additional observations from a re-analysis of the deposited data

Results flagged for a closer look

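The H/H effect on Cybb differed between the experiments by a log2 value of 2.14 (experiment 2 minus experiment 1, SE 0.27, adjusted p = 0.0112 by the interaction in edgeR), and Cybb was higher in all 4 H/H libraries than in any WT library.

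The H/H effect on Pagr1a differed by -4.34 (SE 0.42, adjusted p = 0.00104) by the same test. It was higher in both H/H libraries of experiment 1 and lower in both H/H libraries of experiment 2, and its levels in WT cDC1 were 2.86 and 3.03 CPM in experiment 1 and 15.4 and 17.9 CPM in experiment 2. Pagr1a also varied between duplicates of some other groups, with 2.56 ± 3.35 CPM in H/H cDC2 of experiment 1 (SD, n = 2 libraries). The spread of this gene may therefore be understated by 2 libraries per group, and its cause was not tested.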

How the results depend on the processing

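Of 2361 recomputed values of the 119 named genes, 2228 kept their direction and side of the threshold, 120 lost the call, 2 gained it and 11 changed sign. 81 of the 119 genes kept both throughout. The count over both experiments (1578) ranged from 1162 to 1542 with 1 library left out. It was 562 without a term for the experiment, which adds the difference between experiments to the spread, and 33 named genes then lost their call. The labels do not say that equal replicate numbers mark a shared animal or day, and they were not taken as pairs. The deviations of equal numbers correlated at 0.196 in experiment 1, where equal numbers shared their sex-linked transcripts (0.0766 without genes of X and Y), and at -0.194 in experiment 2 (-0.199 without them). The replicate block gave 1203. The crossed pairing, chosen after seeing the data, gave 2649. With 1 library left out, the count of experiment 1 alone ranged from 263 to 727, that of experiment 2 alone from 514 to 701 and that of the difference from 2 to 7. The difference gave 31 genes without a filter on low counts and 9 in DESeq2. The sign changes concern 3 genes that did not pass over both experiments. Nfil3 was at 0.0264 with library totals only, 0.0081 with at least 5 CPM in 2 libraries, 0.00156 with the replicate block, 0.00658 with it crossed, 0.0477 without the experiment term and 2.77e-05 with a term for libraries that hold Xist. With 1 library left out, Nfil3 ranged from -0.0889 to 0.141, Id2 from -0.00876 to 0.123 and Pagr1a from -1.32 to 0.139. Id2 and Pagr1a changed sign without replicate 1 of H/H in experiment 2. Other counts of 1 or 2 list members also moved with single libraries. The causes were not tested. At this depth 14307 of 55487 genes passed the filter on low counts.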
